A study of Canis lupus familiaris with 8 samples.

Results

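The genes described here encode respiratory complexes II, III, IV and V of the inner mitochondrial membrane, their assembly factors and cytochrome c. They were found by a rule on symbols, which takes the SDH, UQCR, UQCC, COX, COA, SCO, ATP5 and ATPAF families with CYC1, CYCS and SURF1. The rule reads no measured value, but the gene group itself was taken up with earlier results of these data known. The rule found 56 of the 12824 genes in the deposited table: 7 of complex II, 9 of complex III, 21 of complex IV, 18 of complex V and the gene of cytochrome c. Bulk RNA sequencing had been run on retina of the dog (Canis lupus familiaris, wild-type male Beagles, age 31 weeks) prepared in 2 ways, with 4 libraries each. Fresh-frozen libraries came from right eyes embedded in freezing medium without fixation or cryoprotection. PFA-fixed libraries came from left eyes that had been in 4% paraformaldehyde (PFA, a crosslinking fixative) for 3 h, then in 2% for 24 h, and that were cryoprotected in sucrose before freezing. The column kit used for frozen tissue was replaced for fixed tissue by a kit for paraffin-embedded material with 18 h of proteinase K at 56 °C. Fixation, cryoprotection, eye side and extraction cannot be told apart here. The labels call the libraries biological replicates without tying them to animals, so that a p-value here is relative to library spread, which may be technical.

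Complexes II to IV belong to the electron transport chain. Complex II, succinate dehydrogenase, is also an enzyme of the citric acid cycle and feeds electrons to ubiquinone. Complex III passes them on to cytochrome c, a soluble carrier, and complex IV (cytochrome c oxidase) reduces oxygen. Complex V, the ATP synthase, uses the proton gradient that complexes III and IV help to build. Complex II is encoded wholly in the nucleus, whereas the other 3 hold subunits made from mitochondrial DNA, which were not analysed here. Photoreceptors are known for a dense packing of mitochondria in their inner segments and for a high use of oxygen.

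Values are log2 CPM: each gene's count scaled for its library, on a log2 scale and not corrected for gene length. The deposited values of a library summed to 947376 to 975641 CPM in fresh-frozen and to 1021459 to 1058314 CPM in PFA-fixed libraries. They are therefore not plain parts of a library's total. The low values put the depth at 21660000 to 22750000 read equivalents in fresh-frozen and at 11030000 to 15400000 in PFA-fixed libraries. All 22 listed rod genes were measured and summed to 32600 to 38100 CPM in fresh-frozen and 36800 to 41700 CPM in PFA-fixed libraries. Marker lists of tissues around the neural retina were lower in fixed libraries, with a median change of -3.50 for 9 pigment epithelium genes and -7.40 for 9 scleral and fibroblast genes. In bulk tissue, fewer cells of a type and less RNA per cell cannot be told apart. Of the 56 genes, 51 matched a symbol of the RefSeq assembly UU_Cfam_GSD_1.0, and the gene models of 26 of these 51 overlap another model. That assembly holds 62 symbols of the rule, and 11 of them are absent from the deposited table by symbol, among them CYC1, UQCR10 and ATP5ME. The rule found no COX6A1, COX6B1, COX7A2 or COX7B either, which are not among those 11, and complex IV is read from 7 subunit genes. Counts and sums by complex therefore cover the measured genes only. How reads of overlapping genes, or of processed pseudogenes, were divided was not tested.

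Genes of these complexes differed between the preparations about as often as other genes, and in both directions. With limma, 41 of 56 (73.2%) differed at an adjusted p under 0.05, where 68.7% of all 12824 genes did. Of the 41, 22 were higher and 19 lower in PFA-fixed retina, against 33.9% and 34.7% of all genes. The median change, PFA-fixed minus fresh-frozen on the log2 scale, was -0.07 over the 56 and -0.02 over all genes. The middle 50% of the changes ran from -0.36 to 0.50 here and from -0.54 to 0.48 over all genes. Changes were modest: 53 of the 56 stayed within 2-fold, and the exceptions were ATP5MJ (2.80), COA4 (1.03) and COX4I2 (-1.13), where 24.3% of all genes were called and changed at least 2-fold. All 4 fixed libraries lay outside the range of the fresh-frozen ones for 37 of the 56 genes, and for 62.9% of all genes. When the change itself had to exceed 1.5-fold (limma's treat), 7 of the 56 passed, 4 higher and 3 lower, where 26.1% of all genes passed (11.9% higher, 14.1% lower): ATP5MJ, ATP5IF1, SDHAF2 and UQCR11 were higher, and ATP5MC3, ATP5F1A and ATP5F1B lower.

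Structural subunits and the factors that build the complexes differed in the share called, more in falls than in rises. Of all genes, 68.7% were called, 33.9% higher and 34.7% lower. Of 32 subunits of complexes II to V, 12 rose, 16 fell and 4 did not pass (87.5% called), with a median change of -0.22. Of 22 assembly factors, 8 rose, 3 fell and 11 did not pass (50% called), with a median of 0.04. The difference between the roles was not tested. Complex V stood at one end, since all 18 of its genes passed, 10 higher and 8 lower. Complex IV stood at the other, with 5 higher, 5 lower and 11 of 21 not passing (47.6% called). Complex II had 3 higher and 2 lower of 7 (71.4% called), and complex III 3 higher and 4 lower of 9 (77.8% called), both near the share of all genes. The order of complexes V and IV did not hold once the mean of the rod genes was subtracted from each library. Complex V then had 4 higher and 8 lower of 18, and complex IV 4 higher and 11 lower of 21. Of all genes, 18.3% were then higher and 51.9% lower.

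**Figure D1:**
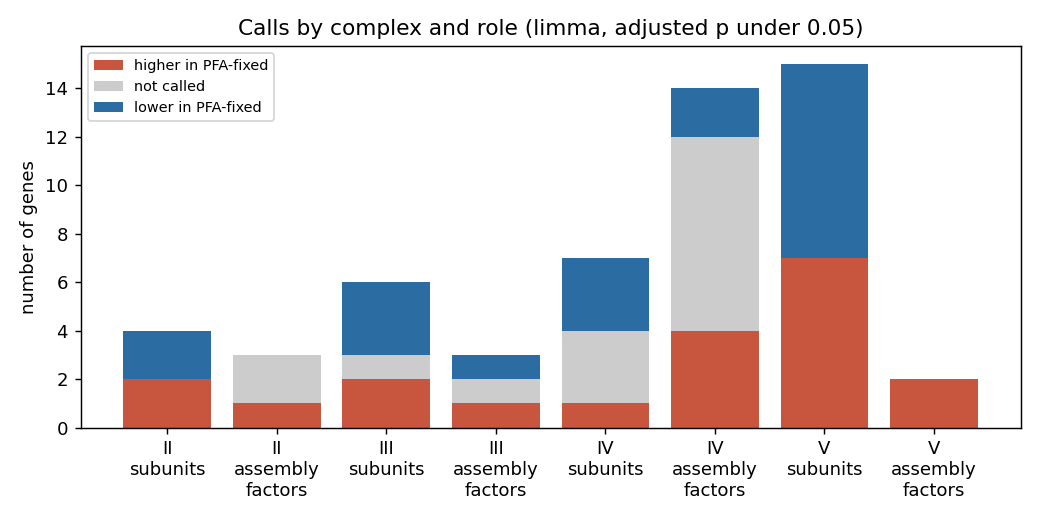
Number of genes (y axis) of each complex and role (x axis) that were higher, not called or lower in PFA-fixed against fresh-frozen retina with limma at an adjusted p under 0.05. All 15 subunits of complex V were called, 7 higher and 8 lower, while 8 of 14 assembly factors of complex IV were not. Of all genes, 68.7% were called. With the rod list mean, 4 subunits of complexes II to V were higher and 20 lower, where 18.3% and 51.9% of all genes were.

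The split between rises and falls depended on the scaling. The 22 rod genes did not move together: as deposited their changes ran from -0.26 to 1.39, with 13 called higher and 4 lower. After the mean of the rod genes had been subtracted from each library, 6 of them were called higher and 8 lower. The median change of all genes was then -0.36, and 70.1% of all genes were called, 18.3% higher and 51.9% lower. Of the 56 genes, 10 were then higher and 27 lower, and subunits numbered 4 higher and 20 lower. The 10 that stayed higher were ATP5IF1, ATP5MC2, ATP5MJ, ATPAF1, COA4, COX15, COX7A1, SCO2, SDHAF2 and UQCR11. Assembly factors numbered 5 higher and 7 lower with it. Quantile normalization moved the median the other way, to 0.20 for the 56 and 0.07 for all genes.

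**Figure D2:**
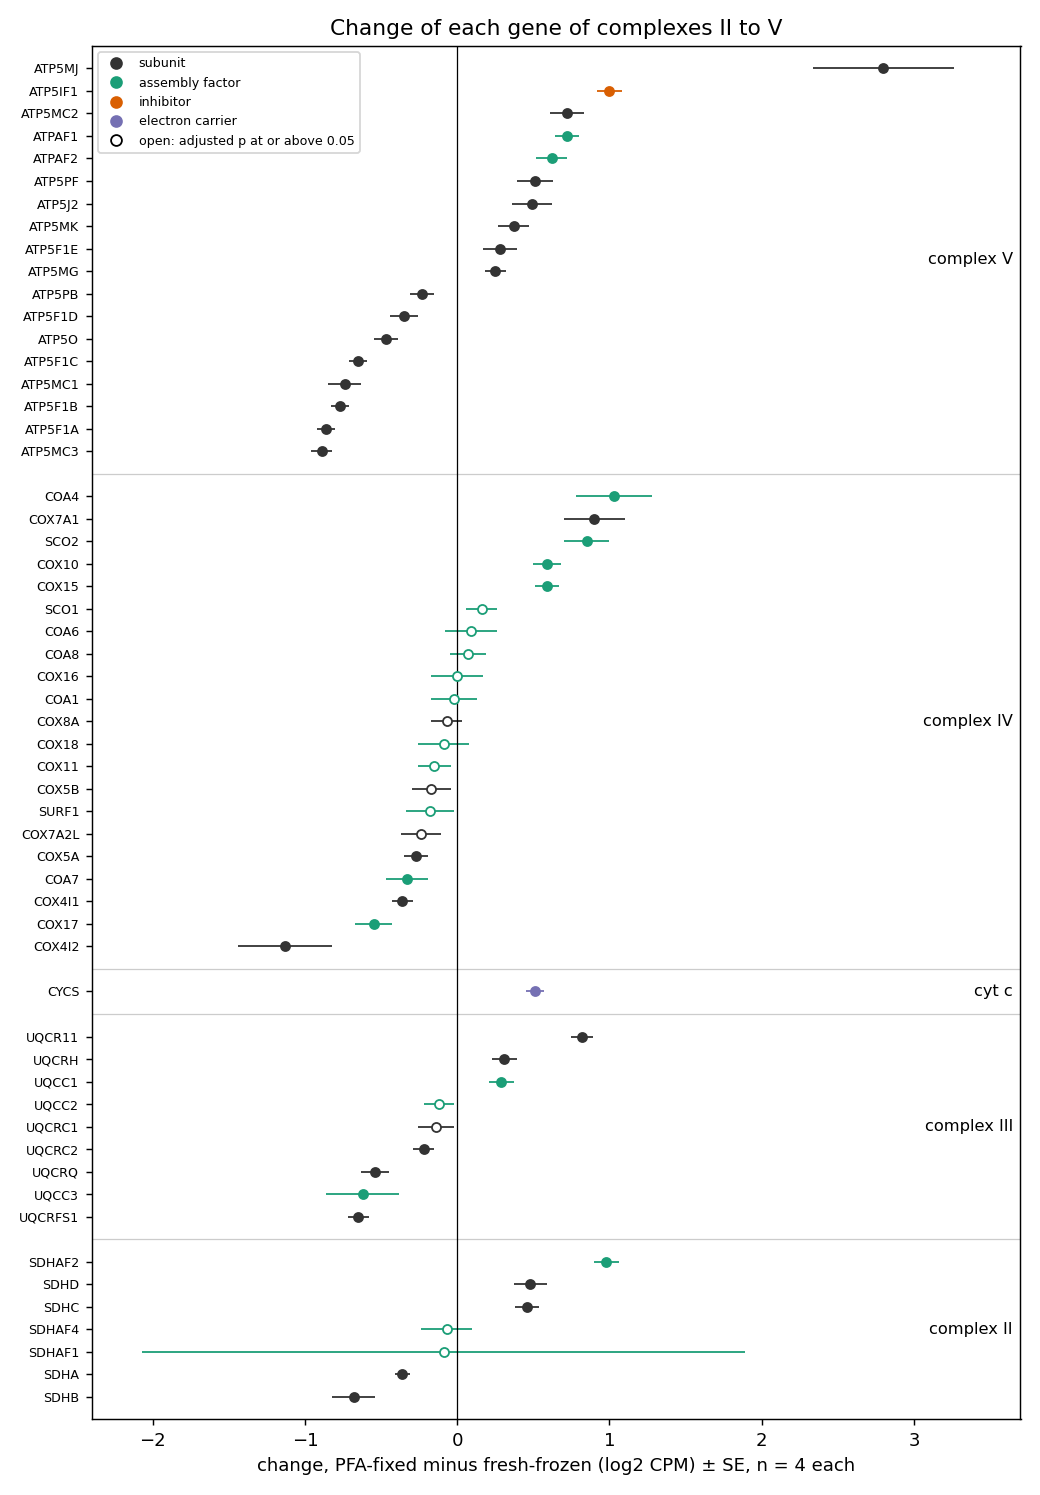
Change of each gene (PFA-fixed minus fresh-frozen log2 CPM, x axis) with its standard error, grouped by complex and ordered within it, with subunits, assembly factors, inhibitor and electron carrier in separate colours. Filled points passed limma's test. ATP5MJ lies farthest to the right (2.80) and COX4I2 farthest to the left (-1.13), and the widest error belongs to SDHAF1 (SE 1.98). Centring on the rod list mean turned 4 rises below zero (ATP5F1E, ATP5MG, UQCC1 and UQCRH).

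In complex II the catalytic and the membrane-anchoring subunits moved in opposite directions. SDHA, the flavoprotein that oxidizes succinate, was at 7.99, 7.98, 8.01 and 7.91 log2 CPM in fresh-frozen replicates 1 to 4 and at 7.65, 7.56, 7.61 and 7.64 in PFA-fixed replicates 1 to 4. It fell by 0.36 ± 0.05 (SE; limma adjusted p = 0.000108), and every fixed library was below every fresh-frozen one. SDHB, the iron-sulfur subunit, read 4.70, 4.75, 4.68 and 4.94 log2 CPM fresh-frozen and 4.34, 4.30, 3.92 and 3.79 fixed. Its fall of 0.68 ± 0.14 (limma adjusted p = 0.000804) was also without overlap, with fixed replicates 3 and 4 the lowest.

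SDHC and SDHD form the membrane anchor that holds the ubiquinone site. SDHC stood at 6.53, 6.68, 6.59 and 6.58 log2 CPM in fresh-frozen and at 7.23, 7.14, 6.94 and 6.92 in fixed libraries, a rise of 0.46 ± 0.08 (limma adjusted p = 0.000278). SDHD stood at 4.43, 4.54, 4.50 and 4.38 and then at 4.86, 4.94, 4.72 and 5.25, a rise of 0.48 ± 0.11 (limma adjusted p = 0.00275). Neither overlapped between the groups as deposited, and centring on the rod list mean left 0.12 and 0.14, which did not pass. The log2 ratio of SDHC to SDHB within a library cannot be moved by a single factor per library. It was 1.83 ± 0.13 in fresh-frozen and 2.97 ± 0.13 in fixed retina (SD, n = 4 each). The pair was chosen after its values were seen, so that the difference of 1.14 is a description with no test.

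Among the assembly factors of complex II, SDHAF2, which helps to attach FAD to SDHA, was at 4.88, 4.79, 5.08 and 4.92 log2 CPM in fresh-frozen and at 5.91, 5.83, 5.96 and 5.88 in fixed libraries. It rose by 0.98 ± 0.08 (limma adjusted p = 6.44e-07), a 1.97-fold difference, and still by 0.63 with the rod list mean. SDHAF4, which acts on the same subunit, was at 2.54 to 3.15 and 2.54 to 2.84 log2 CPM and did not pass (-0.07, limma adjusted p = 0.735). SDHAF1, a factor for the iron-sulfur subunit, could not be compared. Its values were -3.12, 4.86, -3.12 and 1.51 log2 CPM in fresh-frozen and -3.09, 1.28, 4.71 and -3.11 in fixed replicates 1 to 4. Thus 4 libraries sat at or close to the lowest value of the table (-3.12), while single libraries of both groups reached the equivalent of 628.8 and 401.6 reads. Its SD between replicates, 3.89 fresh-frozen and 3.79 fixed, was the highest of all 12824 genes in each group (next 3.04 and 3.13). The median change of complex II (-0.07) is that of SDHAF4, and it moved with single values: it was 0.20 without SDHAF1 (a choice made after seeing the data), and lay at 0.49, 0.41, 0.40 and 0.38 with fresh-frozen replicate 2, fresh-frozen replicate 4, fixed replicate 1 or fixed replicate 4 left out.

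**Figure D3:**
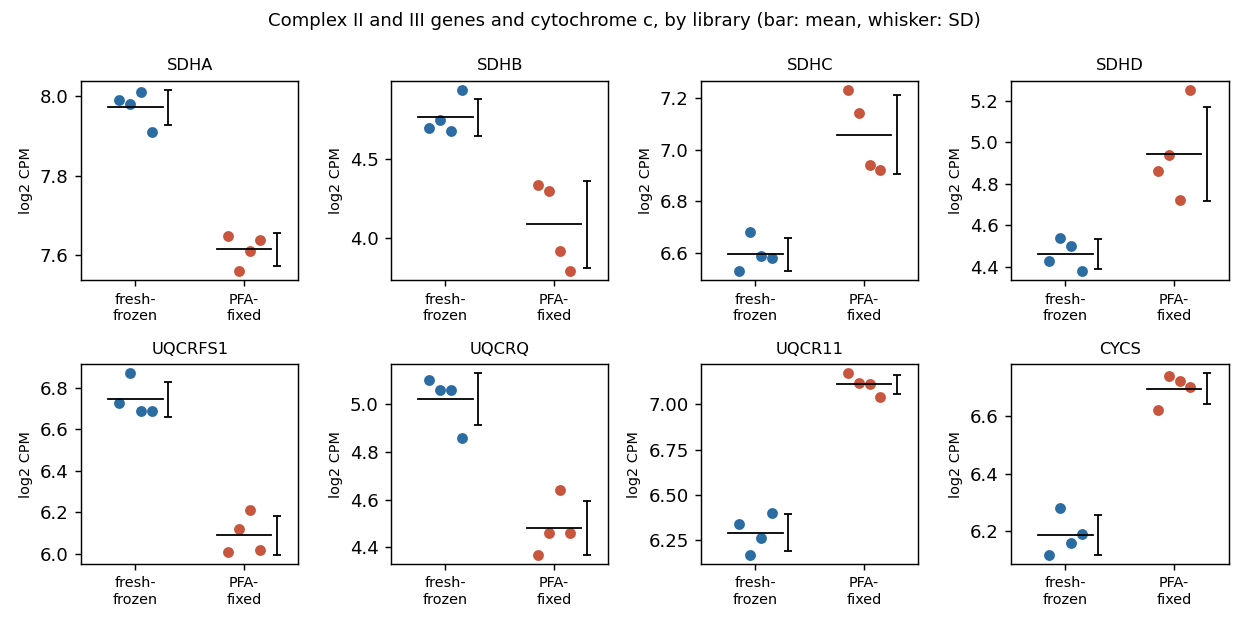
Log2 CPM (y axis) of 4 complex II subunits, 3 complex III subunits and cytochrome c in each library of the 2 preparations, with the mean as a bar and the SD as a whisker. SDHA, SDHB, UQCRFS1 and UQCRQ lie lower in all 4 fixed libraries, and SDHC, SDHD, UQCR11 and CYCS higher. Of those 4 rises only UQCR11 was still called after centring on the rod list mean.

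In complex III, the Rieske protein and UQCRQ fell while the small subunits UQCR11 and UQCRH rose as deposited. UQCRFS1, the Rieske iron-sulfur protein, was at 6.73, 6.87, 6.69 and 6.69 log2 CPM in fresh-frozen and at 6.01, 6.12, 6.21 and 6.02 in fixed libraries. It fell by 0.65 ± 0.07 (limma adjusted p = 7.34e-06). UQCRQ, a small subunit bound close to cytochrome b, went from 5.10, 5.06, 5.06 and 4.86 to 4.37, 4.46, 4.64 and 4.46, a fall of 0.54 ± 0.09 (limma adjusted p = 0.000339). In both genes the 4 fixed libraries lay below all 4 fresh-frozen ones.

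The core proteins of complex III had smaller changes as deposited. UQCRC1, a large subunit on the matrix side, was at 7.01, 7.08, 7.06 and 6.64 log2 CPM in fresh-frozen and at 6.64, 6.97, 6.99 and 6.61 in fixed libraries. The groups overlapped, and the change of -0.14 ± 0.12 did not pass (limma adjusted p = 0.300), while with the rod list mean it was called lower (-0.49, limma adjusted p = 0.00113). Its partner UQCRC2 fell by 0.22 ± 0.07, from 6.06 to 6.20 down to 5.85 to 6.0 (limma adjusted p = 0.0137), which did not pass with median centring (-0.14, limma adjusted p = 0.0968).

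UQCR11, the smallest known subunit of complex III, rose from 6.34, 6.17, 6.26 and 6.40 log2 CPM to 7.17, 7.12, 7.11 and 7.04, without overlap. The rise was 0.82 ± 0.07 (1.76-fold; limma adjusted p = 6.78e-07), and 0.47 with the rod list mean. UQCRH, the acidic hinge protein that helps cytochrome c to dock, was at 6.26, 6.22, 6.37 and 6.50 and then at 6.76, 6.61, 6.72 and 6.50, a rise of 0.31 ± 0.08 (limma adjusted p = 0.00561) that centring on the rod list mean turned to -0.04. The highest fresh-frozen and the lowest fixed value of UQCRH were the same, 6.50 in replicate 4 of each. The assembly factor UQCC1 moved from 5.61, 5.89, 5.77 and 5.62 to 6.09, 5.96, 5.99 and 6.02, a rise of 0.29 (limma adjusted p = 0.00671; -0.05 with the rod list mean). Its binding partner UQCC2 did not pass (-0.12, limma adjusted p = 0.282) except with the rod list mean (-0.47, limma adjusted p = 0.00103). UQCC3, a further assembly factor, was at 1.82, 1.52, 2.27 and 1.99 log2 CPM and at 1.52, 1.55, 0.80 and 1.24 in fixed libraries. With 25 to 104.8 reads behind each value, its fall of 0.62 ± 0.24 (limma adjusted p = 0.0390) did not last when fresh-frozen replicate 1, 3 or 4, or fixed replicate 3 or 4, was left out (adjusted p up to 0.112), and neither with quantile normalization nor with median centring.

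CYCS, the cytochrome c gene, was higher in every fixed library. It stood at 6.12, 6.28, 6.16 and 6.19 log2 CPM in fresh-frozen and at 6.62, 6.74, 6.72 and 6.70 in fixed retina. The rise was 0.51 ± 0.06 (1.42-fold; limma adjusted p = 2.23e-05), and 0.16 with the rod list mean, which did not pass (limma adjusted p = 0.0762). CYC1, the cytochrome c1 gene of complex III, is absent from the deposited table under that symbol.

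In complex IV most changes were small as deposited, and 11 of 21 genes did not pass. The nuclear subunits COX4I1 and COX5A, which sit around the catalytic core, fell. COX4I1 was at 7.11, 7.08, 7.19 and 6.96 log2 CPM in fresh-frozen and at 6.73, 6.76, 6.82 and 6.59 in fixed libraries, a fall of 0.36 ± 0.07 (limma adjusted p = 0.000872) without overlap. COX5A fell by 0.27 ± 0.08, from 5.74 to 5.83 down to 5.39 to 5.68 (limma adjusted p = 0.00994). The zinc-binding subunit COX5B (-0.17, limma adjusted p = 0.251), COX8A (-0.07, limma adjusted p = 0.542) and COX7A2L (-0.24, limma adjusted p = 0.134), which takes part in building supercomplexes, did not pass as deposited. With the rod list mean these 3 were called lower, at -0.52, -0.41 and -0.58.

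Isoform genes of complex IV with a restricted expression were at low levels and moved in opposite directions. COX4I2, the alternative form of subunit 4 known from lung and from vascular mural cells, was at 2.42, 1.98, 2.23 and 2.68 log2 CPM in fresh-frozen and at 1.70, 0.83, 0.43 and 1.81 in fixed libraries. All fixed values were lower, with fixed replicates 2 and 3 lowest, and the fall was 1.13 ± 0.31 (2.19-fold; limma adjusted p = 0.00690). The ratio of COX4I2 to COX4I1 on the log2 scale was -4.76 ± 0.36 in fresh-frozen and -5.53 ± 0.75 in fixed retina (SD, n = 4 each), and this difference did not pass (-0.77, exact two-sided permutation p = 0.143, adjusted p = 0.214 over 3 ratios). Pericyte and smooth muscle markers moved with COX4I2. All 8 measured of 9 listed markers were lower, with a median change of -3.69 and a summed level of 1630 to 2390 CPM in fresh-frozen and 354 to 434 CPM in fixed libraries, none of them at the lowest value. Their part in the fall of COX4I2 was not tested.

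COX7A1, the heart and muscle form of subunit 7A, was at 0.87, 1.18, 1.10 and 1.09 log2 CPM in fresh-frozen and at 1.82, 2.24, 1.93 and 1.87 in fixed libraries. It rose by 0.90 ± 0.20 (1.87-fold; limma adjusted p = 0.00156) without overlap, on 37.0 to 56.9 reads per library, and by 0.56 with the rod list mean. Of 16 listed striated muscle markers, 7 were measured, 2 of them lower and none higher, and their sum was 1150 CPM in fresh-frozen replicate 1, 99.4 to 120 CPM in the other 3 and 82.1 to 96.5 CPM in fixed libraries. Their part in the rise of COX7A1 was not tested.

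Of the assembly factors of complex IV, 4 rose: COX10, COX15, SCO2 and COA4. COX10 and COX15, which make the heme A cofactor, rose by 0.59 ± 0.09 and 0.59 ± 0.08 (limma adjusted p = 0.000107 and 4.06e-05). COX10 ran from 4.19 to 4.39 log2 CPM in fresh-frozen and 4.81 to 5.0 in fixed libraries, and COX15 from 4.67 to 4.84 and 5.27 to 5.39. Centring on the rod list mean left 0.24 in each, which passed for COX15 (limma adjusted p = 0.0337) and not for COX10 (limma adjusted p = 0.0567).

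Of the genes that carry copper to the oxidase, SCO2 rose, COX17 fell and SCO1 did not pass. SCO2 was at 2.45, 2.46, 2.84 and 2.43 log2 CPM and at 3.38, 3.54, 3.42 and 3.22 in fixed libraries, a rise of 0.85 ± 0.15 (1.80-fold; limma adjusted p = 0.000317). COX17, the chaperone that hands copper on to SCO1 and SCO2, was at 3.81, 3.59, 3.98 and 3.95 and then at 3.29, 3.28, 3.31 and 3.25, a fall of 0.55 ± 0.12 (limma adjusted p = 0.00165). The 4 fixed values of COX17 lay within 0.06 of each other. SCO1 changed by 0.16 ± 0.10 (limma adjusted p = 0.169), and was called higher with quantile normalization (0.25) and median centring (0.24). COX11, which delivers copper to another site, did not pass (-0.15, limma adjusted p = 0.222) except with the rod list mean (-0.50, limma adjusted p = 0.00501).

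COA4, a small intermembrane-space assembly factor, rose from 1.36, 1.06, 1.13 and 1.91 log2 CPM to 2.14, 2.50, 2.07 and 2.88. The rise was 1.03 ± 0.25 (2.05-fold; limma adjusted p = 0.00324) and 0.69 with the rod list mean, on 43.0 to 90.0 reads per library. COA7 fell by 0.33 ± 0.14 (limma adjusted p = 0.0485). It passed when fresh-frozen replicate 2 or fixed replicate 1 was left out, but not when any of the other 6 libraries was (adjusted p up to 0.133), nor with quantile normalization or median centring. SURF1, whose loss is a known cause of Leigh syndrome, was at 3.86 to 4.49 and 3.78 to 4.20 log2 CPM and did not pass (-0.18, limma adjusted p = 0.321) except with the rod list mean (-0.53, limma adjusted p = 0.00722). The changes of COA1, COA6, COA8, COX16 and COX18, from -0.09 to 0.09, did not pass either, and of these 5 COX18 was called lower with the rod list mean (-0.43, limma adjusted p = 0.0287).

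In complex V, 4 of 5 genes of the head and central stalk and 2 of 3 of the c ring fell, while the inhibitor and both assembly genes rose. ATP5F1B, the catalytic beta subunit, was at 9.53, 9.52, 9.60 and 9.47 log2 CPM in fresh-frozen and at 8.77, 8.74, 8.82 and 8.72 in fixed libraries. It fell by 0.77 ± 0.06 (1.70-fold; limma adjusted p = 2.76e-07). ATP5F1A, the alpha subunit, went from 8.90, 8.89, 8.88 and 8.74 to 8.0, 8.0, 8.03 and 7.92, a fall of 0.86 ± 0.06 (1.82-fold; limma adjusted p = 1.50e-07). In both subunits the replicates of a group differed by 0.16 at most, far less than the gap between the groups.

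The central stalk followed in part. ATP5F1C, the gamma subunit that turns inside the head, fell by 0.65 ± 0.06 (limma adjusted p = 2.67e-06), and ATP5F1D, the delta subunit, by 0.35 ± 0.09 (limma adjusted p = 0.00553). ATP5F1E, the epsilon subunit, was called higher, at 5.22, 5.58, 5.25 and 5.50 log2 CPM in fresh-frozen and 5.51, 5.87, 5.57 and 5.72 in fixed libraries. The groups overlapped, and the rise of 0.28 ± 0.11 (limma adjusted p = 0.0377) was lost on leaving out fresh-frozen replicate 1 or 3, or fixed replicate 2 or 4 (adjusted p up to 0.116), and in limma without trend, and was -0.06 with the rod list mean. The summed level of the 5 head and central stalk genes was 1430 ± 55.7 CPM in fresh-frozen and 873 ± 19.0 CPM in fixed retina (SD, n = 4 each).

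The c ring, which rotates in the membrane, is encoded by 3 genes known to yield the same mature protein from different targeting sequences, and these genes did not move together. ATP5MC3 was at 6.58, 6.54, 6.61 and 6.56 log2 CPM in fresh-frozen and at 5.58, 5.69, 5.79 and 5.67 in fixed libraries, a fall of 0.89 ± 0.07 (1.85-fold; limma adjusted p = 2.82e-07). ATP5MC1 fell by 0.74 ± 0.11, from 5.68, 5.52, 5.50 and 5.22 to 4.77, 4.73, 4.92 and 4.55 (limma adjusted p = 0.000106). ATP5MC2 went the other way, from 4.66, 5.16, 4.98 and 4.95 to 5.66, 5.80, 5.59 and 5.60, a rise of 0.72 ± 0.11 (1.65-fold; limma adjusted p = 7.95e-05), and of 0.38 with the rod list mean. None of the 3 overlapped between the groups.

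The ratio of ATP5MC2 to ATP5MC3 on the log2 scale was -1.92, -1.38, -1.63 and -1.61 in fresh-frozen and 0.07, 0.10, -0.20 and -0.07 in fixed libraries. The mean moved by 1.61, from -1.64 ± 0.22 to -0.02 ± 0.14 (SD, n = 4 each; exact two-sided permutation p = 0.0286, adjusted p = 0.0857 over 3 ratios). The raw p is the smallest possible here, so 1 ratio alone could not pass an adjustment over 3. The ratio of ATP5MC1 to ATP5MC3 was -1.09 ± 0.18 and -0.94 ± 0.13, a difference of 0.15 that did not pass (exact two-sided permutation p = 0.257, adjusted p = 0.257). The ratio of ATP5MC2 to ATP5MC1, chosen after its values were seen and not tested, was -0.54 ± 0.33 in fresh-frozen and 0.92 ± 0.19 in fixed retina. As the coding parts of these genes are similar, reads may be divided between them, and this was not tested.

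Membrane and stalk subunits of the synthase were mixed. All 4 small membrane subunits measured were called higher as deposited, ATP5MG (subunit g) by 0.25, ATP5MK by 0.37, ATP5J2 (subunit f) by 0.49 and ATP5MJ by 2.80, and with the rod list mean ATP5MG was at -0.10, ATP5MK at 0.03 and ATP5J2 at 0.15, none of them called. ATP5MJ, a small proteolipid of the membrane part, rests on few reads, equivalent to 0, 7, 4 and 2 in fresh-frozen and 22, 20, 24 and 13 in fixed libraries. In log2 CPM these are -3.12, -1.20, -1.76 and -2.30 against 0.93, 0.95, 0.74 and 0.22, without overlap (2.80 ± 0.46; limma adjusted p = 0.000189). With so few reads, the fitted size varies with the constant that is added ahead of the logarithm. In the peripheral stalk, which keeps the head from turning, ATP5O fell by 0.47 ± 0.08 (limma adjusted p = 0.000357), while ATP5PF rose by 0.51 ± 0.12 (limma adjusted p = 0.00234; 0.16 and not called with the rod list mean). The fall of ATP5PB (-0.23, limma adjusted p = 0.0259) was lost on leaving out fresh-frozen replicate 2, or fixed replicate 1, 2 or 4 (adjusted p up to 0.0804), and with median centring.

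ATP5IF1, the inhibitory factor that blocks hydrolysis of ATP when the synthase runs backwards, was among the clearest rises. It was at 6.21, 6.02, 6.25 and 5.93 log2 CPM in fresh-frozen and at 7.0, 7.21, 7.07 and 7.11 in fixed libraries. The rise was 1.0 ± 0.08 (1.99-fold; limma adjusted p = 7.36e-07), and 0.65 with the rod list mean. The log2 ratio of ATP5IF1 to ATP5F1B, the subunit it binds, was -3.43 ± 0.11 in fresh-frozen and -1.67 ± 0.11 in fixed retina (SD, n = 4 each), a difference of 1.76 that was chosen after its values were seen and not tested. ATPAF1 and ATPAF2, the chaperones that bind the beta and the alpha subunit during assembly, rose by 0.72 ± 0.08 and 0.62 ± 0.10 (limma adjusted p = 6.98e-06 and 0.000127), opposite to the subunits they bind. With the rod list mean ATPAF1 rose by 0.38, and ATPAF2 was at 0.27 and not called (limma adjusted p = 0.0526).

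**Figure D4:**
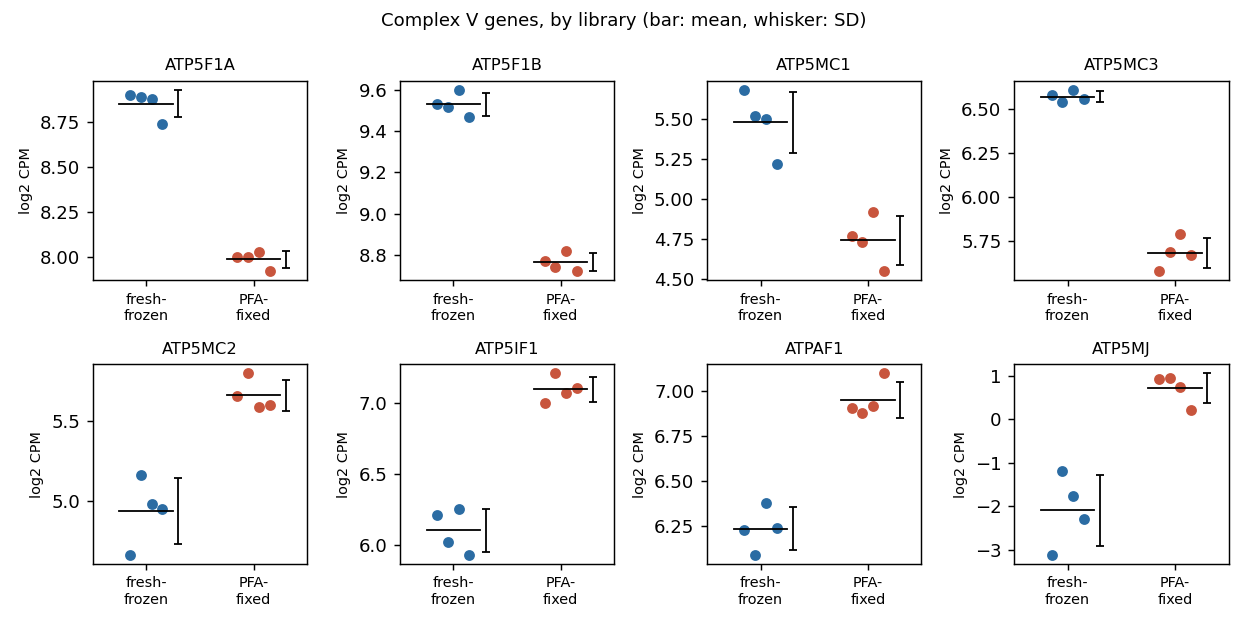
Log2 CPM (y axis, a separate range in each panel) of 8 complex V genes in each library of the 2 preparations, with the mean as a bar and the SD as a whisker. ATP5F1A, ATP5F1B, ATP5MC1 and ATP5MC3 lie lower in all 4 fixed libraries, and ATP5MC2, ATP5IF1, ATPAF1 and ATP5MJ higher, directions that also held with the rod list mean.

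Sums over measured genes, on the deposited scale, overlapped between the preparations for complexes II, III and IV. For complex V the sum was smaller in the fixed libraries. These sums are dominated by the genes with the most reads and were not tested. Over all genes the values summed to a mean of 963000 CPM in fresh-frozen and 1040000 CPM in fixed libraries. Every fixed library had a larger total than every fresh-frozen one (1020000 to 1060000 against 947000 to 976000 CPM). Shares of each library's own total would therefore place fixed libraries lower, relative to fresh-frozen ones, than the sums do. An overlap of sums may not hold for such shares, which were not compared. Complex V summed to 2210, 2180, 2230 and 2050 CPM in fresh-frozen and to 1680, 1780, 1780 and 1700 CPM in fixed libraries, so that the groups did not overlap. Complex II summed to 430 to 469 and 438 to 467 CPM, complex III to 560 to 604 and 566 to 625 CPM, and complex IV to 490 to 529 and 471 to 509 CPM, each with overlap. Within complex V, subunits summed to 2010 ± 72.1 and 1450 ± 51.6 CPM, and the pair of ATPAF genes to 90.6 ± 6.51 and 148 ± 9.59 CPM (SD, n = 4 each). The total of complex IV joined opposite shifts. Its subunits summed to 280 to 326 CPM in fresh-frozen and 247 to 268 CPM in fixed libraries. Its assembly factors summed to 204 to 215 and 221 to 246 CPM, and neither role overlapped between the groups.

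**Figure D5:**
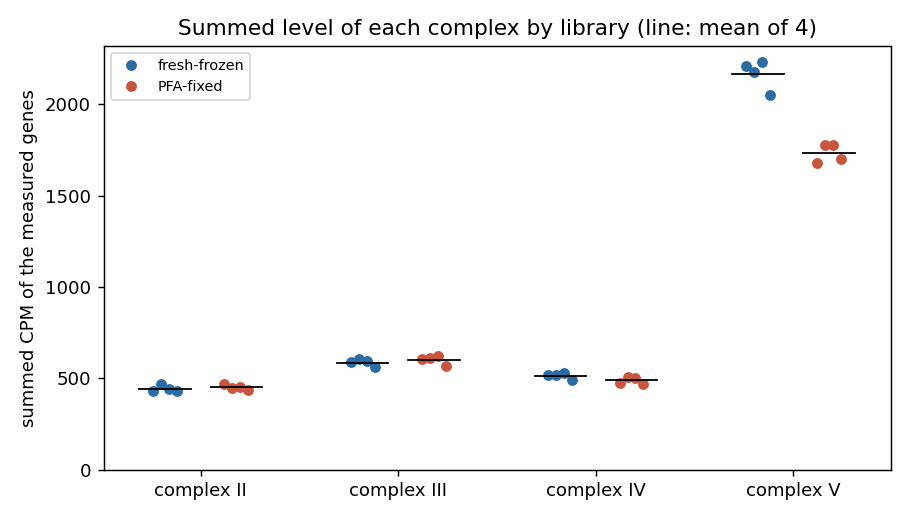
Summed CPM of the measured genes of each complex (y axis, from 0) in each of the 8 libraries, with the mean of 4 as a line. Fixed libraries hold 1680 to 1780 CPM of complex V genes, below the 2050 to 2230 CPM of fresh-frozen ones, and overlap with them in complexes II to IV. The sums use the deposited scaling and join subunits with assembly factors. Shares of each library's own total were not compared.

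Other genes of the same pathway were also mixed. A list of 23 further subunits and factors of complexes II to V held 20 measured genes, of which 5 rose, 3 fell and 12 did not pass (40% called, against 68.7% of all genes), with a median of 0.16 (2 higher and 6 lower with the rod list mean). FMC1, an assembly factor of the synthase head, rose by 1.02 ± 0.09 (limma adjusted p = 1.17e-06), as did CMC1, a factor of complex IV, by 0.80 ± 0.12 (limma adjusted p = 0.000107). HIGD1A, a modulator of complex IV, fell by 0.59 ± 0.09 (limma adjusted p = 7.96e-05), and SMIM20, which takes part in early complex IV assembly, by 0.40 ± 0.10 (limma adjusted p = 0.00299). These 4 kept their direction and their call with the rod list mean.

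Of 15 regulators of mitochondrial genes, 7 rose, 2 fell and 6 did not pass (60% called, against 68.7% of all genes), with a median of 0.29 (3 higher, 4 lower and a median of -0.05 with the rod list mean). The coactivator gene PPARGC1B was at 6.64, 6.87, 6.88 and 6.77 log2 CPM in fresh-frozen and at 8.17, 8.12, 8.02 and 8.14 in fixed libraries. It rose by 1.32 ± 0.07 (2.50-fold; limma adjusted p = 1.60e-08), and MTERF3, which acts on mitochondrial transcription and ribosomes, by 1.16 ± 0.11 (limma adjusted p = 2.17e-06). POLRMT, the mitochondrial RNA polymerase, fell by 0.46 ± 0.12 (limma adjusted p = 0.00564), and the nuclear receptor gene ESRRA by 0.31 ± 0.10 (limma adjusted p = 0.0150). These 4 kept their direction and call with the rod list mean, but ESRRA did not pass with quantile normalization (-0.14, limma adjusted p = 0.228) or median centring (-0.23, limma adjusted p = 0.0577). Among the other rises, those of NRF1 (0.48), TFAM (0.29) and PPARGC1A (0.48), chosen as known activators of mitochondrial genes with their values seen, did not pass with the rod list mean, at 0.14, -0.05 and 0.13. The rise of PPARGC1A also did not pass with quantile normalization (limma adjusted p = 0.0508), or when fresh-frozen replicate 3 or 4, or fixed replicate 1, 2 or 3, was left out (adjusted p up to 0.12). Of 40 genes with symbols that start with NDUF, 15 were higher and 11 lower (65% called, against 68.7% of all genes), with a median of -0.02. This set stands for complex I by symbol only, and it includes assembly factors and NDUFA4L2. With the rod list mean 9 were higher and 22 lower, where 18.3% and 51.9% of all genes were.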

How the data were processed

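RNA of 4 fresh-frozen and 4 PFA-fixed retina samples was made into stranded total RNA libraries, per the labels' protocols. The authors used kallisto 0.48.0, edgeR and limma, per the submitters' processing notes. The transcript reference is not given in the sources used here, nor is the strand setting. The authors' deposited values are log2 CPM, in 8 columns of values, each matched to a sample by its name, and 0 further columns of values. Effective depth was read from the spacing of low values above the shared lowest value of -3.12, with 60.9% to 67.9% of values of up to 20 reads whole within 0.1 of a read. Reads were therefore not restored, and read equivalents are estimates.

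Changes were fitted with limma 3.58.1 (trend, group as the only term) in R 4.3.3 over all 12824 genes, with Benjamini-Hochberg adjustment and a threshold of 0.05. The step was tested on simulated data. Of the isoform pairs planned, 3 had both genes measured, and their ratios were tested over the 70 assignments of libraries (exact permutation, two-sided). The other planned pairs, among them COX7A1 to COX7A2, lacked a measured gene and could not be formed. Alternatives were leaving out each library, a replicate block, quantile normalization, centring on the median or on the mean of 22 rod genes, a minimum mean of 3 log2 CPM, limma without trend and a test against 1.5-fold. Library values are given for the 3 largest rises and falls and the highest level of each complex, CYCS and isoform pairs. The other genes named were chosen by role with their values seen. Members and lists were chosen with earlier results of these data known. Protein lengths and promoters were not analysed here. Counts, medians and sums over genes describe these libraries and carry no test. The other marker lists had median changes of -5.66 (7 melanocyte genes), -2.65 (8 endothelial), -2.78 (9 microglia and macrophage), -0.46 (10 Müller glia), -0.20 (7 striated muscle) and 0.32 (22 rod).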

Additional observations from a re-analysis of the deposited data

Results flagged for a closer look

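Of 112 groups of 4 libraries (56 genes in each preparation), 5 held a value far from the other 3, or 4.46%, where chance gives about 1 in 20. ATP5F1A was lowest in fresh-frozen replicate 4 (8.74 log2 CPM against 8.88 to 8.90), and so was UQCRC1 (6.64 against 7.01 to 7.08). Fresh-frozen replicate 3 was highest for COX5A (5.83 against 5.74 to 5.75) and SCO2 (2.84 against 2.43 to 2.46). ATPAF1 was highest in PFA-fixed replicate 4 (7.10 against 6.88 to 6.92).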

How the results depend on the processing

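Of the 41 called genes, 36 (21 higher, 15 lower) kept their call and direction without each single library and with the replicate block, quantile normalization, median centring and limma without trend. The other 5 were ATP5F1E, ATP5PB, COA7, UQCC3 and UQCRC2. With the rod list mean, 25 of the 36 did (10 higher, 15 lower). That scaling gave 2341 genes higher in all, 10 of the 56, and 1, 1 and 4 in complexes II, III and V, with 11 lower in complex IV. Its medians were -0.36 (all genes), -0.41 (the 56), -0.41, -0.49, -0.41 and -0.08 (complexes II to V). It turned ATP5F1E (-0.06), ATP5MG (-0.10), UQCC1 (-0.05) and UQCRH (-0.04). Medians with quantile normalization were 0.07 (all genes), 0.20 (the 56), 0.35 (II) and 0.12 (IV). Median centring gave 0.06 (all genes) and -0.06 (III), with 2 lower in complex III. A minimum mean of 3 log2 CPM left 46 of the 56, 2 higher in complex IV, and medians of 0.01 (all genes) and 0.46 (II), with fewer genes tested. Against 1.5-fold, 1530 genes were higher and 1813 lower, 4 and 3 of the 56, with 1 and 0 in complex II, 1 and 0 in III, 0 and 0 in IV and 2 and 3 in V. Unless the alternative itself removes genes or demands a larger change, the cause was not tested.

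Without single libraries, the 56 held 21 to 22 higher and 16 to 18 lower. Medians ran from -0.12 to 0.49 in complex II, -0.24 to -0.08 in III, -0.11 to -0.02 in IV and 0.21 to 0.31 in V. Ratio changes ran from -1.02 to -0.49 (COX4I2 to COX4I1), 0.07 to 0.21 (ATP5MC1 to ATP5MC3) and 1.52 to 1.70 (ATP5MC2 to ATP5MC3).

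Same-numbered libraries of the preparations had correlated deviations of 0.05, 0.149, -0.089 and 0.224, of which 2 were over the 0.1 that was asked of every pair. The labels tie no number to an animal, so the numbers were not taken as pairs, and whether they share a dog is not known. With the replicate block the 56 held 22 higher and 17 lower, without the calls of COA7 and UQCC3. The ratio of ATP5MC2 to ATP5MC3 still moved by 1.61, with an exact sign permutation p of 0.125, the smallest that 4 pairs allow.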
